A study of Homo sapiens with 24 samples.

Results

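The comparison described here is between A549 cells that received a plasmid for eGFP and A549 cells that received a scramble control plasmid. Its members are 6 of the 24 RNA-seq libraries of the study, 3 labelled GFP and 3 labelled SCR. The main counts are given with all 6 and with the 5 that remain without scramble replicate 3. Fold changes of single genes are mostly given with the 5 alone. A549 is an established human lung adenocarcinoma line with epithelial features, kept in F-12K medium with serum. Both plasmids were delivered by lipid transfection and RNA was collected after 48 h. The eGFP plasmid was a pcDNA expression vector that makes the green fluorescent protein, and the scramble plasmid used the U6 promoter to make a shuffled version of the small noncoding RNA snaR-A. The groups therefore differ in vector, in promoter and in product, and no untransfected cells were analysed here, so which of these a difference goes with cannot be told apart. The design text calls the replicates biological but does not say how cultures were set up, so a p-value here measures the spread between these libraries. Libraries were stranded, made from poly(A) RNA after rRNA depletion. The table lists human genes, and eGFP itself was not measured in it.

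Totals of the 6 libraries lay between 222407389 and 260878268 estimated counts, and a count of 0 allows up to 3 counts, or 0.0115 to 0.0135 CPM (counts scaled to a common library size), for counting error only. SF3B2, a protein of the U2 snRNP that the study overexpressed in other A549 cells, was at 254, 257 and 307 CPM in the eGFP libraries and 315, 286 and 7397 CPM in the scramble libraries. Scramble replicate 3 therefore stands apart, with a high level of a gene whose plasmid it is not labelled with. Marker genes of A549 summed to between 18430 and 20210 CPM in the eGFP libraries and between 16670 and 19930 CPM in the scramble libraries, so both groups carried the profile of the line, although the surfactant-associated SFTA3 was at or near 0. Markers of HEK293T, the other line of the study, summed to between 46.1 and 49.6 CPM in all 6 libraries. Of 8 leukocyte markers, 5 passed the filter on low counts and none of these passed in edgeR's quasi-likelihood test, 2 reaching an unadjusted p under 0.05 on the higher side with either 5 or 6 libraries (DESeq2 called 0, and the exact test of edgeR 1 with 6 libraries and 0 with 5). Their sum was between 35.8 and 49.6 CPM with eGFP and between 19.51 and 25.1 CPM with scramble, most of it from CD68, a lysosomal protein of which 77.1% of the transcript sequence, taken in 31-base words, also occurs in another gene, while PTPRC and CD3E, which define leukocytes and T cells, were at 0 in every library. Their part in the results below was not tested.

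Interferons are secreted proteins that warn cells of a virus. Sensors of foreign RNA or DNA pass a signal through adaptor proteins and kinases to transcription factors of the IRF family, which turn on interferon genes. Secreted interferon binds its receptors, the JAK kinases activate STAT proteins, and these turn on a large group of interferon-stimulated genes, among them the sensors themselves and the effectors that block viral replication.

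A549 cells with the eGFP plasmid had higher levels of 88 antiviral genes in both forms of the comparison, and no antiviral gene was lower, also at an unadjusted p under 0.05 and also in DESeq2 and the exact test of edgeR. The genes come from 16 lists that follow the circuit from sensors to feedback, with 160 genes in all, of which 156 were analysed here and 143 passed the filter on low counts. Past the threshold (edgeR's quasi-likelihood test with Benjamini-Hochberg adjusted p under 0.05, and a log2 fold change above 1 or under -1) were 89 with all 6 libraries and 88 without scramble replicate 3. Over all genes tested the share past the threshold on the higher side was 0.904% (195 of 21578) with 6 libraries and 0.838% (185 of 22080) with 5. The shares on the lower side were 0.00463% (1 gene) and 0.0272% (6 genes). By adjusted p alone, 97 antiviral genes were higher with 6 libraries and 95 with 5, against 1.46% and 1.27% of all genes tested, and no antiviral gene was lower, against 0.0324% and 0.0815%. The median log2 fold change was 1.63 over the antiviral genes tested with 6 libraries and 1.67 with 5, and -0.01 and 0.00 over all genes. For each of the 88 genes the 3 eGFP libraries lay above the 3 scramble libraries, for which a two-sided exact permutation test gives p = 0.1, the smallest that 3 against 3 allow. Groups without overlap, higher or lower, were seen for 2671 genes (12.4%) of all tested with 6 libraries. The 88 were picked by passing the test, so their separation is a description only. In RNA from whole cultures, a change in every cell and a change in some of the cells cannot be told apart.

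**Figure D1:**
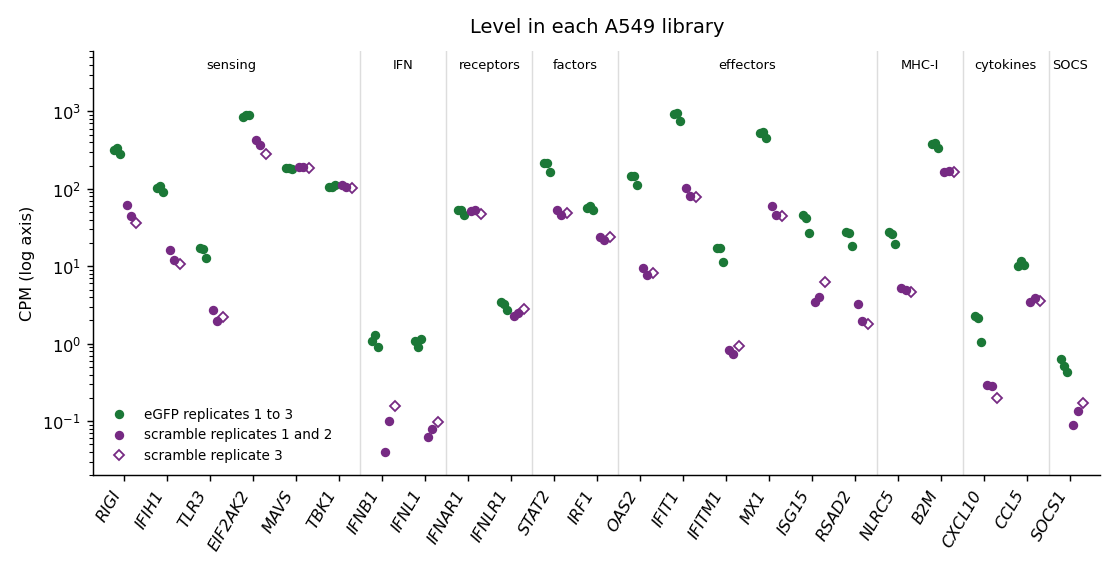
CPM on a log axis of 23 genes ordered by role, with each point a library: eGFP replicates in green, scramble replicates 1 and 2 filled purple, scramble replicate 3 an open diamond. The eGFP points lie above all scramble points for sensors such as RIGI, for IFNB1 and IFNL1 and for the effectors, while MAVS, TBK1 and the receptor IFNAR1 lie together.

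Fold changes below are those without scramble replicate 3 unless stated, as log2 of eGFP over scramble, and levels are CPM scaled by TMM (a correction for library composition) in all 6 libraries. The 88 genes had a median log2 fold change of 2.20, from 1.06 for APOBEC3F, a cytidine deaminase, to 5.25 for IFNL2. Of them 22 were at 3 or above, 31 between 2 and 3 and 35 between 1 and 2. In at least one alternative setting 19 of the 88 were tested and lost the call, mostly where a library was left out. Genes that a stricter filter on counts left untested are not part of this number.

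Many interferon-stimulated genes carry a response element for STAT and IRF proteins near their start. In RefSeq promoters of build GRCh38.p14, the 250 bases upstream of the start were searched on both strands for the core of this element, written as GAAA, a spacer of 2 bases and GAAA. Of the 88 genes, 68 had an entry, and 35 of these (51.5%) held the core, against 11.9% of the 42 antiviral genes with an entry that were tested and did not pass, and 3.07% of all 27305 promoters. The site of activated STAT dimers, TTCNNNGAA, reads the same on both strands. It was in 14 of the 68 (20.6%), against 4 of the 42 that did not pass (9.52%) and 6.78% of all promoters. A match to the element shared bases with a match to the STAT site in 12 of the 2610 promoters that held either, among them 4 of the called antiviral genes, so the shares of the 2 motifs are not independent there. The first base of the match nearest to the start lay a median of 74 bases upstream, from 10 to 221, and 21 of the 35 were within 100 bases. The median log2 fold change was 2.65 for the 35 genes and 2.04 for the 33 without the core. A match describes the letters and shows no binding. The upstream sequences of 6 genes that rose are shown to place these elements in a sensor, in effectors and in a chemokine, each the gene of its list with the largest log2 fold change among those that held the core. They run 5′ to 3′ on the gene's strand and end at the base before the start, with the core in capitals, also where it lies on the opposite strand and reads TTTC.
IFIH1: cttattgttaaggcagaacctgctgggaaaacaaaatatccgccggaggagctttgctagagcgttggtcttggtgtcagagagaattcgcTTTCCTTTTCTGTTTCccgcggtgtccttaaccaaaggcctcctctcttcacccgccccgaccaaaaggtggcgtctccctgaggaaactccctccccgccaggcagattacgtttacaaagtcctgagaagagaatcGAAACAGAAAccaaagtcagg
IFIT1: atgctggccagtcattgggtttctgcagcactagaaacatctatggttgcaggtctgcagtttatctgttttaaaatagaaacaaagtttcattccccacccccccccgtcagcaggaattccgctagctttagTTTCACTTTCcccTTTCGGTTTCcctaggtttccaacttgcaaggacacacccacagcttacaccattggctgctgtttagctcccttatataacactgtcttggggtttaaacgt
ISG15: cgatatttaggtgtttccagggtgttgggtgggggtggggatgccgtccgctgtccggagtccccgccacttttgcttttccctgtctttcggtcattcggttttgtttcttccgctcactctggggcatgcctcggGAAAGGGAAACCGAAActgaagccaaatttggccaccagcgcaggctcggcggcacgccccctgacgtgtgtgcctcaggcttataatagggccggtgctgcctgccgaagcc
IFITM1: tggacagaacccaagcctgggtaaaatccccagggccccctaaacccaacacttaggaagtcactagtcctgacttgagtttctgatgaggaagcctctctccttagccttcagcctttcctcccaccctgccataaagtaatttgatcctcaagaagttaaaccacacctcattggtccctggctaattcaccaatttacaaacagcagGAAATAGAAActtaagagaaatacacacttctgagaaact
IFI27: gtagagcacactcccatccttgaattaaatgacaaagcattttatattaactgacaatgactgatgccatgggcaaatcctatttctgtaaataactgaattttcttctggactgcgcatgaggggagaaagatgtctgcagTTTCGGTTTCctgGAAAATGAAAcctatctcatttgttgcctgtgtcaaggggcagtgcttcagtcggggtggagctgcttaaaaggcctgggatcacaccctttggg
CXCL10: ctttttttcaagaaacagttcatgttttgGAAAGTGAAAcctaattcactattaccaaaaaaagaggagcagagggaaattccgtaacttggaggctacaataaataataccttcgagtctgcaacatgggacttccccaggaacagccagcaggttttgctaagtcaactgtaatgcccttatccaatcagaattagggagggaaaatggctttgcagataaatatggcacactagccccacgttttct
They are chr2:162318685-162318934 (minus strand) for IFIH1, chr10:89392373-89392622 (plus strand) for IFIT1, chr1:1013247-1013496 (plus strand) for ISG15, chr11:313790-314039 (plus strand) for IFITM1, chr14:94110486-94110735 (plus strand) for IFI27 and chr4:76023498-76023747 (minus strand) for CXCL10. IFIH1 held 3 matches, 2 of which overlap, IFIT1, ISG15 and IFI27 held 2 each and the others 1.

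Among the RNA sensors, 5 of 6 genes passed the threshold in both forms. IFIH1, which encodes MDA5, a sensor of long double-stranded RNA, was at 104, 108 and 91.00 CPM in the eGFP libraries and 16.3, 12.2 and 10.8 CPM in the scramble libraries. RIGI, a sensor of short RNA with a 5′ triphosphate, was at 314, 332 and 279.9 CPM in the eGFP libraries and 62.5, 44.6 and 36.5 CPM in the scramble libraries. Every eGFP library was several times above every scramble library for both genes, and scramble replicate 3 was the lowest. The log2 fold changes were 2.83 (SE 0.15) for IFIH1 and 2.53 (SE 0.16) for RIGI, with adjusted p = 0.000961 and 0.00149 from edgeR's quasi-likelihood test. Of the 31-base words in the transcripts of RIGI, 45.7% also occur in another gene, so its counts could be split. TLR3, the sensor of double-stranded RNA in endosomes, was at 17.2, 16.6 and 12.96 CPM in the eGFP libraries and 2.74, 1.94 and 2.22 CPM in the scramble libraries, a log2 fold change of 2.73. DHX58, the family member LGP2 that tunes MDA5 and RIG-I, was at 2.17, 2.20 and 2.10 CPM in the eGFP libraries and 0.368, 0.352 and 0.438 CPM in the scramble libraries, a log2 fold change of 2.58. EIF2AK2, the kinase PKR that halts translation when it binds double-stranded RNA, was at 852, 904 and 911 CPM in the eGFP libraries and 426, 367 and 286 CPM in the scramble libraries. It had a log2 fold change of 1.16, and scramble replicate 3 was again the lowest. ZBP1, a sensor of Z-form nucleic acids, did not pass. It was at 0.528, 0.546 and 0.326 CPM in the eGFP libraries and 0.184, 0.0117 and 0.0515 CPM in the scramble libraries, with scramble replicates that spread more than 10-fold.

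Among the DNA sensors, 2 of 4 genes tested passed. IFI16, which binds DNA in the nucleus and cytosol, was at 76.3, 75.2 and 65.3 CPM in the eGFP libraries and 18.8, 16.6 and 14.5 CPM in the scramble libraries, a log2 fold change of 2.03 (SE 0.09, adjusted p = 0.000883, edgeR's quasi-likelihood test). TREX1, the exonuclease that removes cytosolic DNA, was at 3.03, 2.31 and 2.14 CPM in the eGFP libraries and 0.610, 0.739 and 1.20 CPM in the scramble libraries. Its log2 fold change was 1.88 with 5 libraries and 1.55 with 6, as scramble replicate 3 was the highest control, and 89.2% of its sequence words occur in another gene, mainly the neighbouring ATRIP. With 6 libraries its call did not hold when a library other than scramble replicate 3 was left out. In edgeR's quasi-likelihood test the adjusted p was then 0.176, 0.151 and 0.0861 without eGFP replicates 1, 2 and 3, and 0.115 and 0.238 without scramble replicates 1 and 2. With 5 libraries the call held without eGFP replicate 1, 2 or 3. It was lost without scramble replicate 1 or 2, at log2 fold changes of 1.75 and 2.03 that rest on 1 scramble library. CGAS, the enzyme that makes the messenger cGAMP when it meets DNA, was at 24.6, 25.6 and 22.9 CPM in the eGFP libraries and 22.3, 22.6 and 21.00 CPM in the scramble libraries, a log2 fold change of 0.12 that did not pass. AIM2, which starts an inflammasome on DNA, was at no more than 0.0322 CPM in any library and was not tested.

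Of the 8 adaptors and kinases that carry the signal from sensor to interferon gene, 2 passed and the list median was 0.02. TRIM25, the ubiquitin ligase that modifies RIG-I, was at 447, 452 and 400.3 CPM in the eGFP libraries and 181, 176 and 167 CPM in the scramble libraries, a log2 fold change of 1.28 (SE 0.07). MYD88, the adaptor of most Toll-like receptors, was at 62.6, 63.6 and 63.3 CPM in the eGFP libraries and 28.00, 24.01 and 26.3 CPM in the scramble libraries, a log2 fold change of 1.28 (SE 0.07). For MAVS, the adaptor of RIG-I and MDA5 on mitochondria, the log2 fold change was -0.07 (SE 0.04), with 184, 187 and 179.7 CPM in the eGFP libraries and 193, 194 and 187 CPM in the scramble libraries. TBK1, the kinase that activates IRF3, had a log2 fold change of -0.01 (SE 0.05), and TICAM1, TRAF3, TANK and IKBKE were between 0.00 and 0.27, none past the test.

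Interferon genes themselves were called. IFNB1, the type I interferon made by most cell types, was at 1.10, 1.29 and 0.919 CPM in the eGFP libraries and 0.0404, 0.102 and 0.155 CPM in the scramble libraries, a log2 fold change of 3.93 (SE 0.40, adjusted p = 0.00825, edgeR's quasi-likelihood test). IFNL1, a type III interferon that acts on epithelia, was at 1.08, 0.894 and 1.16 CPM in the eGFP libraries and 0.0628, 0.0782 and 0.0988 CPM in the scramble libraries, a log2 fold change of 3.87 (SE 0.22). Both genes were between 0.894 and 1.29 CPM with eGFP and at no more than 0.155 CPM in any scramble library. IFNL2 was at 2.12, 1.90 and 1.17 CPM in the eGFP libraries and 0.0135, 0.0743 and 0.155 CPM in the scramble libraries, and IFNL3 at 1.68, 2.03 and 1.14 CPM in the eGFP libraries and 0.0269, 0.133 and 0.167 CPM in the scramble libraries, with log2 fold changes of 5.25 and 4.30. These 2 are near-identical copies that share 56.4% and 54.8% of their sequence words with other genes, mainly each other, so how their counts divide is uncertain. For all 4 genes scramble replicate 3 was the highest control, and with all 6 libraries the log2 fold changes were 3.47 for IFNB1, 3.70 for IFNL1, 4.41 for IFNL2 and 3.88 for IFNL3. IFNL1 was the only one of the 4 called in every alternative run. In edgeR's quasi-likelihood test with 6 libraries, IFNB1 had an adjusted p of 0.0544 without scramble replicate 2. IFNL2 had 0.0775, 0.082 and 0.132 in that test without eGFP replicate 1, eGFP replicate 2 and scramble replicate 2, and IFNL3 had 0.0667, 0.0737 and 0.0921. With 5 libraries the same test gave IFNL2 0.0584 and 0.0663 without eGFP replicates 1 and 2, and IFNL3 0.12 and 0.113, and 0.0608 without scramble replicate 1. IFNE, an interferon of epithelia that viruses do not induce, was at 2.14, 2.06 and 1.96 CPM in the eGFP libraries and 2.30, 2.26 and 2.10 CPM in the scramble libraries and did not pass. Of the 7 other ligands listed, IFNG was at 0 in all 6 libraries and the others at no more than 0.0159 CPM in any library, none tested.

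None of the 6 interferon receptor genes passed in edgeR's quasi-likelihood test, in DESeq2 or in the exact test of edgeR, and 1 with 6 libraries and 2 with 5 had an unadjusted p under 0.05, all on the higher side. IFNAR1, a subunit of the type I receptor, had a log2 fold change of -0.04 (SE 0.07) at 53.9, 53.1 and 46.5 CPM with eGFP and 51.5, 53.5 and 48.1 CPM with scramble. IFNLR1, the subunit that binds type III interferon, had 0.39 (SE 0.14, adjusted p = 0.383, edgeR's quasi-likelihood test) at 3.41, 3.23 and 2.69 CPM and 2.30, 2.46 and 2.85 CPM. The groups overlapped for IFNAR1, and for IFNLR1 only when scramble replicate 3 was included.

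Of the 11 JAK, STAT and IRF genes tested, 3 passed, of which STAT2 and IRF1 are described. STAT2, a member of the complex formed after type I and III interferon, was at 216, 214 and 165 CPM in the eGFP libraries and 52.8, 46.4 and 48.9 CPM in the scramble libraries, a log2 fold change of 2.01 (SE 0.11) with all 6 libraries. IRF1, a factor that binds the response element directly, was at 57.4, 59.8 and 53.6 CPM in the eGFP libraries and 23.6, 22.1 and 23.7 CPM in the scramble libraries, a log2 fold change of 1.32 (SE 0.06). In both genes the lowest eGFP library was over 2-fold above the highest scramble library. IRF2, which binds the same element, was past the adjusted p with a log2 fold change of 0.65 (adjusted p = 0.00175, edgeR's quasi-likelihood test). The kinases JAK1 and TYK2, with -0.08 and 0.09, and IRF3, with 0.13, did not pass. IRF7 was listed at between 0 and 0.129 CPM, with no reading of its level possible.

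The OAS enzymes sense double-stranded RNA and make a messenger that leads to cleavage of RNA. OAS2 was at 148, 147 and 114 CPM in the eGFP libraries and 9.60, 7.72 and 8.30 CPM in the scramble libraries, a log2 fold change of 3.98 (SE 0.17, adjusted p = 0.000883, edgeR's quasi-likelihood test). OASL, a relative without enzyme activity, was at 62.8, 67.4 and 45.8 CPM in the eGFP libraries and 5.67, 6.07 and 7.62 CPM in the scramble libraries, a log2 fold change of 3.32. OAS1 and OAS3 started at over 100 CPM and had log2 fold changes of 2.18 and 2.03.

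The IFIT proteins bind foreign RNA and block its translation, and their genes lie side by side on chromosome 10. IFIT1 was at 920.4, 967 and 759 CPM in the eGFP libraries and 104, 80.9 and 79.6 CPM in the scramble libraries, a log2 fold change of 3.25 (SE 0.16). IFIT2 and IFIT3 had 3.35 and 3.14, and IFIT5 had 1.59. Per kilobase of exon, IFIT1 was the antiviral gene with the highest level in the eGFP libraries, 191 CPM per kb against 20.03 in scramble replicates 1 and 2. IFI6, B2M, IFIT2 and IFIT3 followed at 149.8, 118, 107 and 94.2 CPM per kb. IFIT1B, a relative at no more than 0.146 CPM, passed with 6 libraries (log2 fold change 3.45, adjusted p = 0.0335, edgeR's quasi-likelihood test) and not with 5 (adjusted p = 0.138), and is the antiviral gene in which the 2 forms differ. With 6 libraries its call was also lost without eGFP replicate 1 or 2 or scramble replicate 1 or 2.

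All 3 IFITM genes, whose membrane proteins hold back the entry of enveloped viruses, passed. IFITM1 was at 17.3, 17.1 and 11.5 CPM in the eGFP libraries and 0.825, 0.731 and 0.932 CPM in the scramble libraries, a log2 fold change of 4.30 (SE 0.24). IFITM3 had 2.65 (SE 0.10) and IFITM2 1.26 (SE 0.09). The 3 share between 26.4% and 37.8% of their sequence words with other genes, so counts may move between them.

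Of the MX and GBP genes, which encode large GTPases that attack viral or microbial structures, 6 of 7 passed. MX1 was at 534, 541 and 457 CPM in the eGFP libraries and 59.6, 45.9 and 44.3 CPM in the scramble libraries, a log2 fold change of 3.28 (SE 0.15). MX2, which acts on incoming capsids, was at 11.96, 11.7 and 10.8 CPM in the eGFP libraries and 1.38, 0.673 and 0.756 CPM in the scramble libraries, a log2 fold change of 3.49. GBP4, GBP1, GBP3 and GBP5 had 3.42, 2.81, 1.86 and 1.20. GBP5 lost its call with 5 libraries when eGFP replicate 1 or 2 or scramble replicate 1 or 2 was left out, at an adjusted p between 0.114 and 0.314 in edgeR's quasi-likelihood test, and with 6 libraries at 0.0511 without eGFP replicate 2. GBP2 was at 3.09, 2.79 and 3.52 CPM in the eGFP libraries and 2.99, 2.04 and 2.39 CPM in the scramble libraries, and these groups overlapped.

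ISG15 is a ubiquitin-like protein that is joined to other proteins after interferon, and all 6 genes of its pathway passed. ISG15 itself was at 45.5, 42.3 and 26.7 CPM in the eGFP libraries and 3.42, 4.01 and 6.26 CPM in the scramble libraries, a log2 fold change of 3.36 (SE 0.26). With all 6 libraries it was 3.06 (SE 0.29), since scramble replicate 3 was the highest control. The E1, E2 and E3 enzymes UBA7, UBE2L6 and HERC5 had 2.92, 2.11 and 2.25, and USP18, which removes ISG15 and also dampens the receptor, had 2.51 at 71.9, 74.02 and 55.9 CPM against 11.96, 11.7 and 12.96 CPM. HERC6 had 1.69.

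In the group of PARP enzymes and DTX3L, 5 of 6 passed. PARP9 and its partner ligase DTX3L, whose genes are neighbours on chromosome 3, had log2 fold changes of 2.18 and 2.04. PARP10, PARP14 and PARP12, which modify proteins with single ADP-ribose units, had 2.70, 1.99 and 1.95. ZC3HAV1, the antiviral protein ZAP, was past the adjusted p with 0.63 from a scramble level of 229.7, 209 and 181 CPM.

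The largest list held other effectors, of which 33 of 38 tested passed with a list median of 2.08. IFI27, a mitochondrial protein used as a marker of interferon exposure, was at 18.9, 18.1 and 5.58 CPM in the eGFP libraries and 0.668, 0.387 and 0.777 CPM in the scramble libraries. Its log2 fold change of 4.75 (SE 0.67) was the largest of the list, and eGFP replicate 3 was at 0.302 of the mean of the other 2, the widest such gap among the 88 genes. With 5 libraries its call was lost without eGFP replicate 1 or 2 or scramble replicate 1 or 2, where edgeR's quasi-likelihood test gave an adjusted p between 0.0928 and 0.267. CMPK2, a nucleotide kinase, was at 50.6, 51.99 and 36.8 CPM in the eGFP libraries and 3.29, 2.66 and 2.77 CPM in the scramble libraries, a log2 fold change of 3.97. RSAD2, its neighbour on chromosome 2 and the gene of viperin, which makes a chain-terminating nucleotide, was at 27.5, 26.9 and 18.4 CPM in the eGFP libraries and 3.23, 1.96 and 1.81 CPM in the scramble libraries, a log2 fold change of 3.23. All eGFP libraries were at least 5-fold above all scramble libraries for CMPK2 and RSAD2. XAF1, a promoter of apoptosis, and BST2, the tether that holds virions on the cell, had 3.91 and 3.85. IFI6, IFI44 and IFI44L had 3.06, 2.72 and 3.08, and the deoxynucleotide hydrolase SAMHD1 had 1.84. Members of the TRIM family that passed were TRIM22 (2.42), TRIM21 (1.77), PML (1.67) and TRIM14 (1.63). Of the 5 tested that did not pass, ADAR, the enzyme that edits double-stranded RNA, was the nearest to the threshold with 0.98 at 667, 629 and 566 CPM against 323, 308 and 343 CPM, followed by TRIM5 with 0.85, both past the adjusted p. The last inside the threshold were APOBEC3F with 1.06, which fell outside it without scramble replicate 2, and NMI with 1.10. LY6E was listed at 0 in all 6 libraries, as were TAP2 and TNF, so nothing is read from these.

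In MHC class I presentation, the path that shows peptides to T cells, 6 of 14 genes tested passed. NLRC5, the factor that turns on class I genes, was at 27.7, 25.8 and 19.6 CPM in the eGFP libraries and 5.18, 5.002 and 4.67 CPM in the scramble libraries, a log2 fold change of 2.26 (SE 0.16). B2M, the light chain, was at 376, 393 and 335 CPM in the eGFP libraries and 166, 173 and 163 CPM in the scramble libraries, a log2 fold change of 1.12 (SE 0.08). The peptide transporter gene TAP1 had 1.59, the immunoproteasome gene PSMB9 1.92, the trimming enzyme ERAP2 1.12 and HLA-E 1.08. HLA-E was the called gene with the narrowest gap, its lowest eGFP library 1.68-fold above its highest scramble library, and with 6 libraries its log2 fold change fell under 1 without eGFP replicate 1, eGFP replicate 2 or scramble replicate 1. With 5 libraries PSMB9 lost its call without eGFP replicate 1, eGFP replicate 2 or scramble replicate 2, and ERAP2 without any of these or scramble replicate 1. HLA-B was listed at under 0.1 CPM and HLA-C at under 1 CPM, and PSMB8 at 1.89, 0.145 and 0.283 CPM in the scramble libraries spread over 10-fold, so these 3 carry no reading.

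Of 14 chemokine and cytokine genes tested, 4 passed, and these are chemokines. CXCL10, which draws T cells and NK cells, was at 2.25, 2.15 and 1.05 CPM in the eGFP libraries and 0.292, 0.285 and 0.198 CPM in the scramble libraries, a log2 fold change of 2.65 (SE 0.37, adjusted p = 0.0329, edgeR's quasi-likelihood test). CXCL10 lost its call with 5 libraries without eGFP replicate 1 or 2 or scramble replicate 1 or 2, at an adjusted p between 0.101 and 0.307 in edgeR's quasi-likelihood test. CXCL11, a ligand of the same receptor, had 1.75, CX3CL1 had 1.32, and CCL5, which draws T cells and monocytes, had 1.55 at 10.01, 11.9 and 10.5 CPM against 3.46, 3.93 and 3.55 CPM. CXCL11 lost its call with 5 libraries without eGFP replicate 1, scramble replicate 1 or scramble replicate 2, and CX3CL1 with either set of libraries without eGFP replicate 1 or 2 or scramble replicate 1 or 2, its adjusted p in edgeR's quasi-likelihood test lying between 0.0603 and 0.234. IL6 was at 14.4, 13.6 and 13.02 CPM in the eGFP libraries and 12.02, 11.6 and 6.77 CPM in the scramble libraries and CXCL8, which draws neutrophils, at 74.8, 66.2 and 58.5 CPM in the eGFP libraries and 42.4, 51.1 and 38.3 CPM in the scramble libraries. Both are targets of NF-kappaB and neither passed, with adjusted p = 0.345 and 0.219 in edgeR's quasi-likelihood test. Of 5 feedback inhibitors, SOCS1, which blocks JAK kinases, was at 0.631, 0.522 and 0.432 CPM in the eGFP libraries and 0.0897, 0.137 and 0.172 CPM in the scramble libraries, a log2 fold change of 2.21 whose call was lost with either set of libraries without eGFP replicate 1, eGFP replicate 2 or scramble replicate 2 and with 5 also without scramble replicate 1, while SOCS3, NFKBIA, TNFAIP3 and PIAS1 did not pass.

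**Figure D2:**
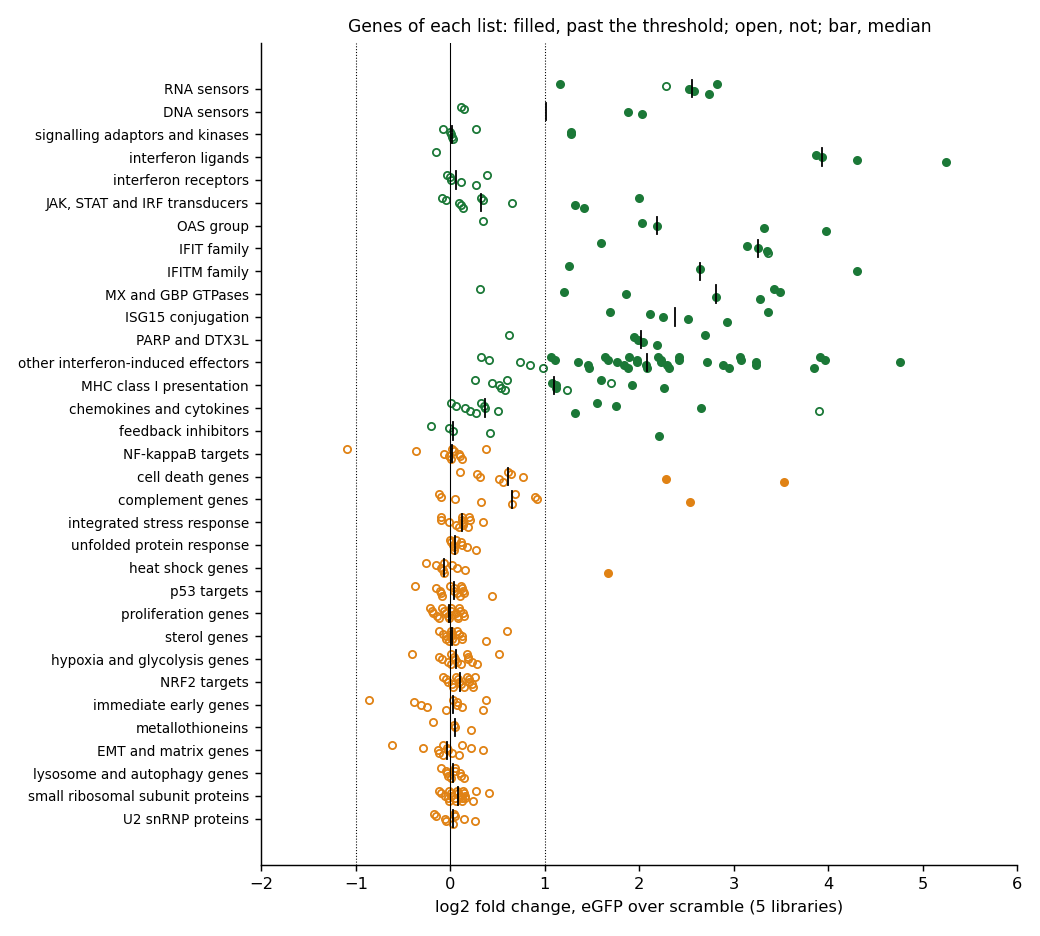
Log2 fold change of eGFP over scramble with 5 libraries for every gene tested in each list, with a filled point for a gene past the threshold, an open point for one that was not, a black bar for the median and dotted lines at -1 and 1. Green lists are antiviral and orange lists are not. Beyond the axis lies 1 gene of the cell death list, at 12.03 and not past the threshold. Lists of sensors, ligands and effectors have medians above 1, with 1.01 for DNA sensors, of which 2 of 4 tested passed. Adaptors, receptors and most orange lists sit around 0, with the cell death and complement lists at 0.61 and 0.65.

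The 88 genes also showed how the eGFP libraries differed among themselves. In 79 of them eGFP replicate 3 was the lowest eGFP library, and its level was a median of 0.813 of the mean of replicates 1 and 2. Even so, the lowest eGFP library was a median of 3.63-fold above the highest scramble library. Scramble replicate 3 was the lowest scramble library in 44 of the 88 genes, replicate 2 in 27 and replicate 1 in 17. The 88 genes took between 1.04% and 1.33% of all counts in the eGFP libraries and between 0.288% and 0.306% in the scramble libraries. Folds were larger from a low start. The 20 genes under 1 CPM in scramble replicates 1 and 2 had a median log2 fold change of 2.94, the 23 from 1 to 10 CPM had 2.70, the 38 from 10 to 100 CPM had 2.01 and the 7 at 100 CPM or more had 1.41. This order is a description only, since at a low count only a large fold passes the test.

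Outside the antiviral lists, 17 lists covered other stress and growth responses with 215 genes tested, of which 4 passed in each form. Their median log2 fold change was 0.05 with 5 libraries. Among cell death genes, TNFSF10, the death ligand TRAIL, was at 10.3, 9.58 and 8.56 CPM in the eGFP libraries and 0.915, 0.727 and 0.837 CPM in the scramble libraries, a log2 fold change of 3.53 (SE 0.15, adjusted p = 0.000883, edgeR's quasi-likelihood test). CASP1, the protease of inflammasomes, was at 1.79, 1.77 and 1.498 CPM in the eGFP libraries and 0.354, 0.340 and 0.275 CPM in the scramble libraries, a log2 fold change of 2.28. Both are also known as interferon-stimulated genes. MLKL, the executor of necroptosis, and PMAIP1 were past the adjusted p in both forms with 0.64 and 0.51. Among complement genes, CFB, a protease of the alternative pathway, was at 5.38, 4.61 and 5.23 CPM in the eGFP libraries and 0.821, 0.931 and 1.22 CPM in the scramble libraries, a log2 fold change of 2.53, with 38.8% of its sequence words shared with another gene. SERPING1, the C1 inhibitor, passed with 6 libraries (1.05, adjusted p = 0.0278, edgeR's quasi-likelihood test) and not with 5 (0.92, adjusted p = 0.0519). Its call with 6 libraries was also lost without eGFP replicate 1, 2 or 3 or scramble replicate 2. C1S, a protease of the classical pathway, was past the adjusted p with 0.69.

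HSPA6, an inducible heat shock protein, was another gene whose call rested on scramble replicate 3. It was at 1.92, 1.87 and 1.80 CPM in the eGFP libraries and 0.610, 0.563 and 1.75 CPM in the scramble libraries, so that replicate stood with the eGFP libraries. The log2 fold change was 1.67 (adjusted p = 0.0022, edgeR's quasi-likelihood test) without it and 0.94 (adjusted p = 0.791) with it. HSPA6 shares 57.1% of its words with other genes, mainly HSPA7. No other heat shock gene passed. The lists of NF-kappaB targets, integrated stress response, unfolded protein response, p53 targets, proliferation, sterol synthesis, hypoxia and glycolysis, NRF2 targets, immediate early genes, metallothioneins, EMT and matrix, lysosome, small ribosomal subunit and U2 snRNP proteins had 0 of 185 genes past the threshold in either form of edgeR's quasi-likelihood test, in DESeq2 or in the exact test of edgeR. An unadjusted p under 0.05 was reached by 12 on the higher and 4 on the lower side with 6 libraries, and by 23 and 10 with 5. In those lists, ZMAT3, a p53 target, was lower by adjusted p in both forms, at 37.00, 35.9 and 38.8 CPM in the eGFP libraries and 48.8, 47.4 and 45.02 CPM in the scramble libraries, a log2 fold change of -0.37 (adjusted p = 0.0262, edgeR's quasi-likelihood test). CDH1, the epithelial cadherin, was higher by adjusted p with 0.35, and STARD4, a sterol carrier, with 0.60 and only with 6 libraries. ZMAT3 and CDH1 were named after their values were seen. In each of the other lists the log2 fold change furthest from 0 was -1.09 for LTB, -0.87 for EGR3, -0.62 for SNAI2, 0.52 for CA9, 0.44 for BBC3, 0.41 for RPS19, 0.34 for CHAC1, 0.27 for XBP1, 0.26 for HMOX1, 0.26 for SF3B5, 0.22 for MT2A, -0.22 for PLK1 and 0.15 for SQSTM1, and in none of these did the adjusted p reach the threshold.

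In all, 175 genes passed in both forms, 21 only with 6 libraries and 16 only with 5. The count with 5 libraries, 191 in both directions, rose to 337 when eGFP replicate 3 was also left out, 278 of them higher and 59 lower. Besides the listed genes, 67 named genes and 26 IDs without a symbol were higher with 5 libraries. The 10 with the largest rise among those whose mean log2 CPM was 1 or more and with groups that did not overlap were BATF2, TRANK1, PLEKHA4, LAMP3, THEMIS2, TMEM140, RASGRP3, ODF3B, TYMP and APOL2. BATF2, a transcription factor of the AP-1 family known from interferon-treated cells, was at 26.5, 27.7 and 19.5 CPM in the eGFP libraries and 2.43, 2.15 and 2.56 CPM in the scramble libraries, a log2 fold change of 3.42 (SE 0.18, adjusted p = 0.000961, edgeR's quasi-likelihood test). TRANK1 was at 143, 127 and 86.6 CPM in the eGFP libraries and 15.7, 15.8 and 18.7 CPM in the scramble libraries, a log2 fold change of 2.92. LAMP3, a lysosomal membrane protein of mature dendritic cells, was at 10.8, 9.56 and 10.9 CPM in the eGFP libraries and 1.66, 1.39 and 0.811 CPM in the scramble libraries, a log2 fold change of 2.77. All scramble libraries were well under all eGFP libraries for these genes. TYMP, a thymidine phosphorylase, and APOL2, of the apolipoprotein L family, had 1.58 and 1.57, and the other 5 lay between 1.68 and 2.80. With 5 libraries ODF3B lost its call without scramble replicate 1 or 2 and RASGRP3 without scramble replicate 2. Of the sequence words of ODF3B, 11.2% also occur in TYMP, so the counts of ODF3B and TYMP are not fully independent.

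Genes past the threshold that the lists and that rule left out, named after their values were seen, included further genes known from the interferon response. IDO1, the tryptophan-degrading enzyme, had a log2 fold change of 2.63, and RNF213, a ubiquitin ligase, 1.20. CD274, which encodes the checkpoint ligand PD-L1, was at 11.96, 13.1 and 9.70 CPM in the eGFP libraries and 5.93, 5.29 and 4.68 CPM in the scramble libraries, a log2 fold change of 1.05 (adjusted p = 0.0284, edgeR's quasi-likelihood test). Of the 84 genes outside the lists that were higher in both forms, 64 had a position, 53 of them protein coding and 10 lncRNA. Of these 64, 11 (17.2%) lay within 50 kb of one of the 88 antiviral genes, against 0.932% of the 20061 genes tested outside the antiviral lists. Among the 11 were the lncRNA genes NRIR beside CMPK2 and RSAD2, BISPR beside BST2, LINC02574 beside IFI6 and IRF1-AS1 beside IRF1. NRIR had a log2 fold change of 3.69, BISPR 2.63, LINC02574 2.97 and IRF1-AS1 1.40. LINC02574 holds most of the 19.3% of IFI6 words that occur in another gene, so its counts and those of IFI6 are not independent.

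**Figure D3:**
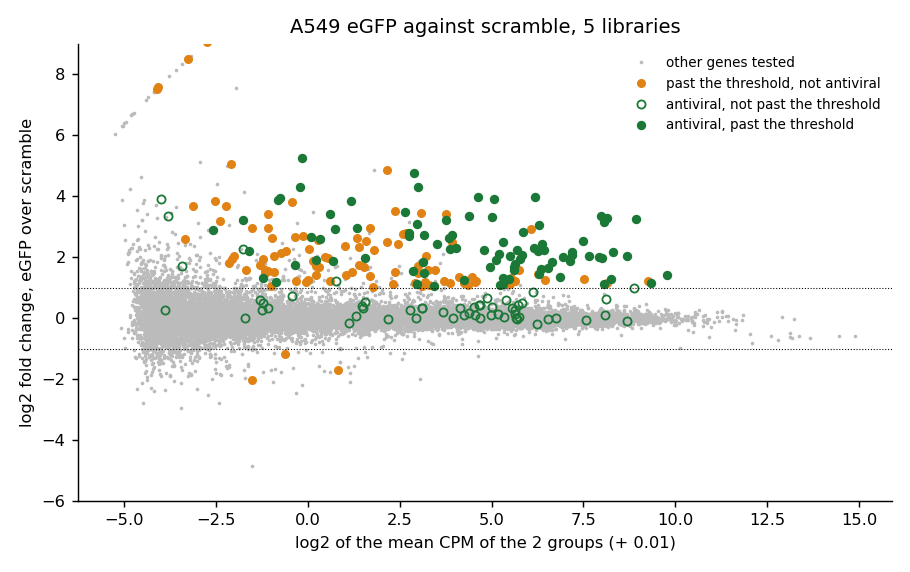
Log2 fold change of eGFP over scramble with 5 libraries against log2 of the mean CPM of both groups for the 22080 genes tested, with antiviral genes in green and other genes past the threshold in orange. Dotted lines mark -1 and 1, and 28 genes lie beyond the axis, which runs from -6 to 9. Among those not shown are genes past the threshold on the lower side, at -11.4 (TBC1D3B), -9.01 and -8.56. Nearly all genes past the threshold are above 1 at every level.

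Few genes were lower with eGFP, and none met the naming rule on that side. In edgeR's quasi-likelihood test, 6 passed with 5 libraries, 1 with 6 and none in both, while an unadjusted p under 0.05 was reached on the lower side by 1023 and 428 genes. TBC1D3B, a gene of a recently duplicated family, was at 0 in all eGFP libraries and at 1.45, 1.38 and 0.00429 CPM in the scramble libraries, so that scramble replicate 3 stood with eGFP. RNU6-3P, a copy of the U6 RNA gene, was at 0.699, 0.811 and 0.965 CPM in the eGFP libraries and 2.57, 2.81 and 0.975 CPM in the scramble libraries, and again the call was absent with scramble replicate 3. By adjusted p in both forms 5 genes were lower, among them FAM171A1 with -0.39, TNFRSF10D, a decoy receptor of TRAIL, with -0.39, and ACO1, the iron-responsive aconitase, with -0.31. TNFRSF10D was at 42.9, 42.3 and 46.1 CPM in the eGFP libraries and 57.9, 56.8 and 60.1 CPM in the scramble libraries. MT-ND6, a mitochondrial subunit of complex I, was lower by adjusted p with 5 libraries (-0.54, adjusted p = 0.0066) and not with 6 (adjusted p = 0.934, both from edgeR's quasi-likelihood test).

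The study has 2 further A549 plasmids, which set the eGFP values in context. The mean log2 CPM of the 88 genes was 5.20, 5.20 and 4.89 in the eGFP libraries and 2.76, 2.67 and 2.71 in the scramble libraries. It was 3.50, 3.57 and 3.30 with SF3B2, in the same type of vector as eGFP, and 2.81, 3.01 and 3.43 with snaR-A, from a U6 plasmid like scramble. The third snaR-A library is A549 by its title and treatment, but its tissue and cell line fields say kidney and HEK293T. Its A549 markers summed to 18990 CPM and its HEK293T markers to 50.57 CPM, against 85.27 to 1044 CPM and 584.1 to 966.5 CPM in the libraries labelled HEK293T throughout. The eGFP libraries were above all others. Against the same scramble libraries, which the 3 contrasts share, the median log2 fold change of the 88 genes was 2.19 for eGFP, 0.64 for SF3B2 and 0.34 for snaR-A, or 2.20, 0.58 and 0.31 without scramble replicate 3. Without the third snaR-A library the snaR-A median was 0.15 with all scramble libraries and 0.12 without scramble replicate 3. The 88 genes were chosen by the eGFP contrast, so its value is a description.

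**Figure D4:**
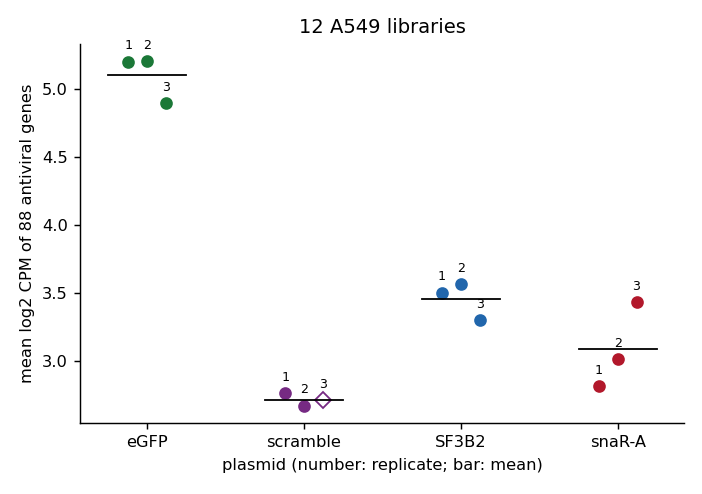
Mean log2 CPM of the 88 antiviral genes in each of the 12 A549 libraries, with replicate numbers beside the points, a bar for each group's mean and an open diamond for scramble replicate 3. The eGFP libraries lie between 4.89 and 5.20, the SF3B2 libraries between 3.30 and 3.57, and scramble replicate 3 lies with the other scramble libraries.

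The same pair of plasmids was also compared in HEK293T, a human embryonic kidney line. There 17 of 128 antiviral genes tested were past the threshold on the higher side and 3 on the lower, against 8.1% and 2.98% of all genes tested, and their median log2 fold change was 0.03. HEK293T eGFP replicate 3 stands apart, with A549 marker genes at 1044 CPM in sum against 98.5 to 120.7 CPM in the other HEK293T libraries of this pair. Without it, 12 were higher and 5 lower, against 8.35% and 3.35%, and the median was -0.09. The difference between the lines was tested as an interaction in edgeR's quasi-likelihood fit of both lines. With all 12 libraries, 83 of 145 antiviral genes differed at an adjusted p under 0.05, 80 of them with the larger value in A549, where 26.4% of all genes differed. Without A549 scramble replicate 3 it was 75 of 145, 73 larger in A549, against 26.3%. Without HEK293T eGFP replicate 3 it was 101 of 145, 99 larger in A549, against 25.5%, and without both replicates 100 of 144, 97 larger in A549, against 27.3%. HLA-C, which carries no reading in A549, is among the 83. The genes tested also include TAP2, at 0 in these A549 libraries, and TREX1, at 0 in these HEK293T libraries, and neither differed. IFITM1 was at 7.76, 8.01 and 8.28 CPM with eGFP and 19.95, 20.8 and 15.2 CPM with scramble in HEK293T, a log2 fold change of -1.22, so the direction there was the opposite of that in A549.

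**Figure D5:**
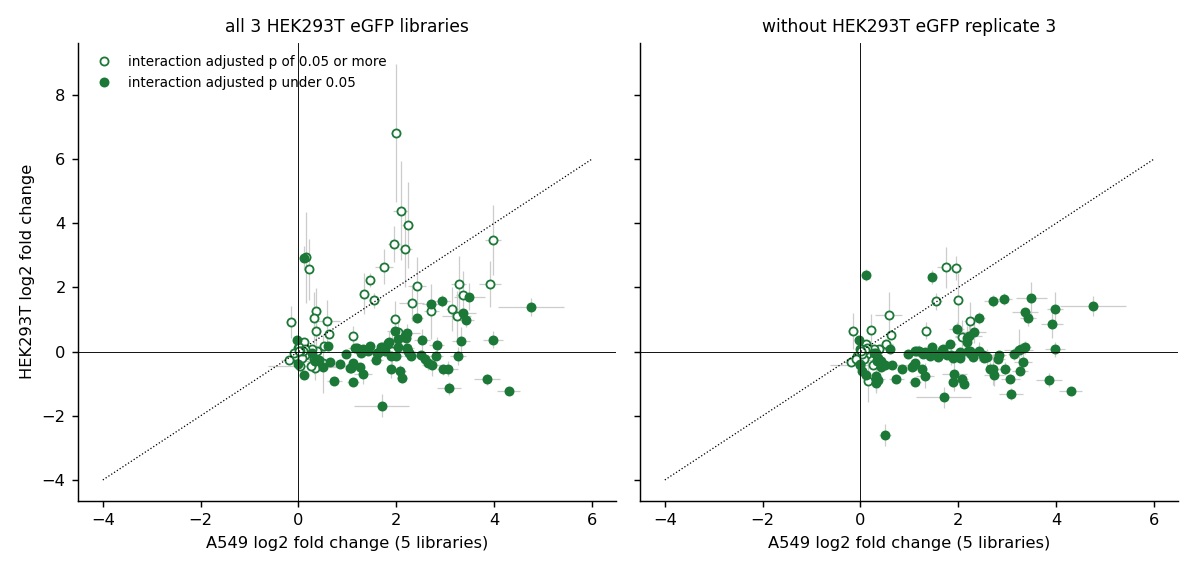
Log2 fold change of eGFP over scramble in A549 (5 libraries, x axis) and HEK293T (y axis) for 127 antiviral genes, with bars for the standard error and a dotted line of equal change, on the left with all HEK293T libraries and on the right without HEK293T eGFP replicate 3. Filled points differ between the lines at an adjusted p under 0.05, which holds for 73 genes on the left and 97 on the right, and most of them lie near 0 on the HEK293T axis.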

How the data were processed

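RNA-seq libraries of A549 and HEK293T cells were analysed from 1 table of 60236 gene IDs and 24 libraries. The deposited values are estimated counts per gene, which the authors made with Trim Galore and Salmon against human transcripts (hg38 in the submitters' notes), so reads that fit several genes were divided between them. Of the values, 51% were not whole, and counts were rounded before testing. Symbols were given for 54903 IDs, and the other 5333 held 2.53% of the counts of the 6 libraries. The members and gene lists were chosen with earlier results of these data known. 4 antiviral genes are not analysed here, and some further list genes are counted but not reported by name.

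Genes were filtered with filterByExpr, scaled by TMM and tested in edgeR 4.0.16 (R 4.3.3, limma 3.58.1) by glmQLFit and glmQLFTest, with Benjamini-Hochberg adjustment over all genes tested. The fit used only the groups compared, and the difference between cell lines was an interaction term. Named genes were the antiviral lists, the called or furthest member of each other list, SF3B2, and up to 10 other genes in each direction with the largest change. Alternatives were DESeq2 1.42.0, edgeR's exact test, other scaling and filters, all A549 groups in 1 fit, a replicate block and leaving out each replicate. Scripts were tested on simulated data. Shared sequence was the percent of 31-base words of a gene's transcripts that occur in another gene. Tables and plots used Python 3.11.15, pandas 2.3.3, numpy 2.4.6 and matplotlib 3.10.9.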

Additional observations from a re-analysis of the deposited data

Results flagged for a closer look

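The eGFP effect differed between A549 and HEK293T cells by the interaction term of edgeR's quasi-likelihood fit for 75 of 145 antiviral genes without A549 scramble replicate 3, where 26.3% of all genes differed. The values given here are the difference of the log2 fold changes, A549 minus HEK293T, for the 3 antiviral genes with the smallest p. For IFITM1, which limits the entry of viruses, it was 5.532 (adjusted p = 1.54e-05, edgeR's quasi-likelihood test), with all 3 HEK293T eGFP libraries under the 3 HEK293T scramble libraries. For PML, the scaffold of nuclear bodies, it was 1.665 (adjusted p = 1.14e-05, edgeR's quasi-likelihood test), and the HEK293T libraries of both groups lay between 25.3 and 26.7 CPM. For TRIM14, an adaptor of antiviral signalling, it was 1.674 (adjusted p = 3.04e-05, edgeR's quasi-likelihood test), with HEK293T libraries between 28.8 and 32.3 CPM. Without HEK293T eGFP replicate 3 as well, the library with A549 marker genes at 1044 CPM in sum, the differences were 5.62 for IFITM1, 1.70 for PML and 1.78 for TRIM14.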

How the results depend on the processing

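The count of genes past the threshold stayed within 1.5 times its value under every alternative tried with 6 libraries (196, from 140 with the replicate block to 240 with edgeR's exact test). With 5 libraries (191) it moved further in 2 settings. It was 356 with the replicate block, 284 higher and 72 lower, and between 149 and 337 when a replicate was left out, the highest without eGFP replicate 3. With 5 libraries, only eGFP replicate 3 has the replicate number 3, so in the block fit it does not inform the difference between the plasmids. These 2 settings are therefore not independent of each other. Why the count rises without eGFP replicate 3 was not tested. Where a scramble replicate was left out of the 5, the remaining one was assumed to vary like the eGFP libraries. The antiviral count lay between 75 and 90 with 6 libraries and between 76 and 91 with 5, and the count of antiviral genes that differed between cell lines between 73 and 101.

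Same-numbered libraries had deviations that correlated at -0.144, 0.00824 and -0.18. These values cannot decide whether replicate numbers pair the samples. A549 scramble replicate 3 lay far from the other A549 scramble libraries, and this weighs on every deviation in that group. With the replicate block the antiviral count was 75 with 6 libraries and 90 with 5. Over the named genes, 4275 values were computed under the alternatives, none of which reversed, 100 lost their call and 14 gained one. The lost calls belong to 23 genes, 19 of them among the 88 antiviral genes, and came from leaving out a library (81), the replicate block (16) and other settings (3). Not among them are called genes that the filter of at least 10 counts in every library left untested, 5 with 6 libraries and 4 with 5. With 6 libraries the block took the calls of IFNB1, IFNL2, IFNL3, ISG15, IFI27, GBP5, CX3CL1, SOCS1, PSMB9, CH25H, APOL1, EIF2AK2, TREX1, IFIT1B, SERPING1 and ODF3B. Leaving out a library also took those of PSMB9, ERAP2, CH25H and APOL1 with 5 libraries and of HLA-E (by its fold) with 6. Gains include ZBP1 in DESeq2 and CXCL9 in edgeR's exact test with 6 libraries. Leaving out HEK293T eGFP replicate 3, alone or with A549 scramble replicate 3, was examined in HEK293T and between the lines, and the fit without both and the HEK293T fit without it were chosen after seeing the data, as was leaving out the third snaR-A library. Depth limits what can be said of genes under 0.0135 CPM.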
